A study of Mus musculus with 24 samples.

Results

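The genes described here encode the sperm side of gamete fusion: Izumo1, Izumo2, Izumo3, Izumo4, Spaca6, Tmem95, Dcst1, Dcst2 and Spesp1. They are 9 of the 55536 gene rows of the count table, found by matching Ensembl identifiers to these symbols in GENCODE release 21 for mouse. All 9 passed the filter on low counts in every comparison, with at least 125 counts in any library used. Bulk RNA-seq of polyadenylated RNA was made from enriched pachytene/diplotene spermatocytes and from enriched round spermatids of C57BL/6J males aged 10 to 15 weeks. The mutants carried 1 copy (Ago413+/-, heterozygous) or 2 copies (Ago413-/-, null) of a deletion that takes away the whole of Ago1 together with part of Ago3 and of Ago4, neighbouring genes for Argonaute proteins, and the controls were wild-type (Ago413+/+). A library came from a pool of 2 to 5 mice, and the fractions are enriched populations with a stated purity above 70%, so that p-values measure the spread between pools of animals and preparations. The spermatocyte comparison used 4 wild-type, 3 heterozygous and 3 null libraries, and the round spermatid comparison used 3 wild-type, 4 heterozygous and 4 null libraries. Another 3 libraries, marked as outliers in the labels, were not used in the main comparisons. The deletion was made in embryonic stem cells and completed with a Sox2-cre deleter strain, so it is constitutive and the somatic cells of the testis carry it too.

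Sperm that have shed the acrosome, the secretory vesicle over the head, bind and then fuse with the egg membrane. IZUMO1 is the adhesion protein that binds JUNO (the product of Izumo1r) on the egg, and it reaches the surface when the acrosome is released. SPACA6, TMEM95 and the paired membrane proteins DCST1 and DCST2 are each needed on the sperm for fusion in the mouse. IZUMO2, IZUMO3 and IZUMO4 are relatives of IZUMO1, of which IZUMO3 is known for its part in forming the acrosome, and SPESP1 is a protein of the equatorial segment, where fusion starts. The transcripts are made in the testis before the proteins act, many of them in haploid spermatids, and the comparison of fractions and genotypes asks when they appear and whether the deletion alters them.

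In GRCm38 (mm10), Izumo1 lies at chr7:45621811-45628823 on the plus strand and Izumo2 close by at chr7:44708742-44719844. Izumo3 lies at chr4:92144329-92147234, Izumo4 at chr10:80702184-80705373, Spaca6 at chr17:17827158-17843009, Tmem95 at chr11:69876684-69878018 and Spesp1 at chr9:62270729-62282208. Dcst1 (chr3:89350219-89365253, minus strand) and Dcst2 (chr3:89361975-89377549, plus strand) are neighbours on opposite strands whose spans overlap without a shared exonic base. Of the exonic bases of Izumo1, 654 (21.9%) are also exonic in Rasip1 on the same strand. Of those of Dcst1, 1268 (24.2%) are shared with the pseudogene Gm10702 on the opposite strand. Reads from such stretches may be lost or assigned to the other gene, so the absolute levels of Izumo1 and Dcst1 are uncertain. Spaca6 contains the genes of the microRNAs Mir99b, Mir125a and Mirlet7e within its span.

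Promoter windows of 300 bases (250 before to 50 after the RefSeq start, build GRCm38.p6) were matched for 8 of the 9 genes, all but Izumo4. The window of Izumo1 (chr7:45621561-45621860, plus strand) is shown because Izumo1 is the central member and its window alone among the 8 held the full cAMP response element, TGACGTCA, the palindrome bound by CREB and CREM factors; these 8 bases are in capitals and start 96 bases before the start site.

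Izumo1: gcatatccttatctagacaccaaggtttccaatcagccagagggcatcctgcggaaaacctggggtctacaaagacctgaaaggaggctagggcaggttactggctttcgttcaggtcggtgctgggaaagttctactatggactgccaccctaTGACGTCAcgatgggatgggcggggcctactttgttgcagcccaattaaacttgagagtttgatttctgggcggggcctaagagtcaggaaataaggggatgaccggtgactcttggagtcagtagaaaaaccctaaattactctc

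The full element, searched on both strands, occurred in 1.79% of 32851 promoter windows. The shorter site TGACG, which the full element contains, occurred in 20.8% of all windows and in those of Izumo1, Spesp1 and Tmem95. The other motifs searched were the GC box GGGCGG (35.7% of all windows; Dcst2, Izumo1 and Spesp1) and the CCAAT box CCAAT (37.4% of all windows; Izumo1 and Izumo3). By their RefSeq starts the pair Dcst1 and Dcst2 share a promoter region, and their joint window is shown because both transcripts are then read outward from it. The GENCODE span of Dcst2 differs and starts at 89361975, within that of Dcst1. In the Dcst2 window (chr3:89365069-89365368, plus strand) the 65 bases between the 2 RefSeq start sites are in capitals.

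Dcst2: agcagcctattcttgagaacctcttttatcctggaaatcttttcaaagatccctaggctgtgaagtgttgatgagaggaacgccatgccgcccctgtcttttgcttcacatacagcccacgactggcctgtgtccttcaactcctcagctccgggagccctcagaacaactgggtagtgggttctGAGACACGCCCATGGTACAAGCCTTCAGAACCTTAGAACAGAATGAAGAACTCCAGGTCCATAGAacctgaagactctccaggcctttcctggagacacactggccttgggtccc

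The window of Spesp1 (chr9:62282130-62282429, minus strand) is shown as that of a member whose level varied little between the groups, with this shorter site in capitals, 7 bases after the start site.

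Spesp1: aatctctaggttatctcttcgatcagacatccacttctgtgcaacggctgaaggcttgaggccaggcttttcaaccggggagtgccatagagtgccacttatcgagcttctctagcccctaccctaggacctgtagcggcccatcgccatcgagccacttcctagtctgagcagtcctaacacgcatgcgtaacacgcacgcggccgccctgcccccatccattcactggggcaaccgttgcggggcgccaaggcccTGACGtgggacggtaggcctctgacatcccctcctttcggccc

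These matches describe letters in a window, and no measurement of factor binding was made here.

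The libraries held 12825105 to 29749058 counts. Ago1, checked first, had 0 counts in all 7 null libraries, which allows up to 3 counts in each, against 2.99 to 4.27 CPM (counts scaled to a common library size) in wild-type spermatocytes and 2.83 to 4.49 CPM in wild-type round spermatids. In the heterozygotes Ago1 overlapped the wild type in both fractions (mean 2.89 against 3.33 CPM in spermatocytes). Counts of Ago3 and Ago4, of which the deletion leaves a part, did not fall to 0. In spermatocytes mean Ago3 was higher in the mutants, at 64.8 CPM in null and 30.3 CPM in heterozygous against 7.02 CPM in wild-type libraries. Mean Ago4 was at 12.3 CPM in null against 32.1 CPM in wild-type libraries. Null and wild-type libraries overlapped in neither gene, but wild-type replicate 5 held 16.8 CPM of Ago4, next to 16.1 CPM in null replicate 2. Heterozygous replicate 3 held 12.3 CPM of Ago3, next to 11.3 CPM in wild-type replicate 4, and 8.16 CPM of Ago4, below every null library. The labelled fractions did not overlap in 8 elongating spermatid markers such as the protamines, whose summed level was 4629 to 15380 CPM in the spermatocyte libraries and 21500 to 55400 CPM in the round spermatid libraries. By contrast the sum of 8 spermatocyte markers such as Sycp3 overlapped between the fractions (485 to 1015 CPM and 514 to 694 CPM), and so did that of 8 round spermatid markers such as Catsper3 (634.5 to 2011 CPM and 907 to 1620 CPM). Taken singly, 6 of the 8 spermatocyte markers were called lower and 1 higher in wild-type round spermatids (edgeR, median log2 fold change -1.57), 3 lower and 1 higher in the null, and none lower and 1 higher in the heterozygote (DESeq2 called 1 lower there). Markers of other testis cells were also measured in the spermatocyte and round spermatid libraries: 8 Sertoli cell genes at 81.0 to 435 CPM, 8 spermatogonial genes at 37.6 to 94.6 CPM, 10 macrophage genes at 12.7 to 32.2 CPM in spermatocytes and 33.4 to 78.2 CPM in round spermatids, 5 Leydig cell genes at 3.02 to 22.8 CPM, 3 of 4 peritubular genes at 2.44 to 9.67 CPM and 3 erythrocyte genes at 0.990 to 10.7 CPM. Fewer cells of a type and less RNA per cell cannot be told apart in bulk samples.

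Levels were first compared between the genes on a length scale, CPM per kb of the annotated transcript with the longest coding sequence, in wild-type libraries (means ± SD). In round spermatids the highest was Izumo2 at 281 ± 47.8 (n = 3), above every other member in every library. Spesp1 (116 ± 10.0), Izumo4 (109 ± 7.24) and Izumo3 (95.4 ± 22.2) followed without separating from each other. Izumo1 (54.7 ± 8.54), Dcst1 (52.7 ± 12.5) and Dcst2 (45.3 ± 6.26) came next and also overlapped in order. The lowest were Tmem95 (29.4 ± 3.80) and Spaca6 (25.6 ± 4.82), whose values overlapped. In spermatocytes (n = 4) Izumo2 (137 ± 39.5), Spesp1 (136 ± 17.4) and Izumo4 (125 ± 6.80) overlapped at the top, and each library's Izumo4 value was above every Izumo3 value (mean 72.8 ± 24.8). The rest ran from Izumo1 (42.4 ± 12.5) through Dcst1 (29.6 ± 8.08), Dcst2 (28.1 ± 8.67) and Spaca6 (21.5 ± 9.74) to Tmem95 (20.4 ± 6.84), with overlap between all neighbours. Where all annotated exons were used as the length instead, Spaca6 (7067 bases of exon against 1073 in that transcript) dropped to 3.27 ± 1.48 in spermatocytes and 3.88 ± 0.732 in round spermatids, the lowest of the 9 in both, and Dcst1 ranked below Tmem95. Both length choices put Izumo2 first in round spermatids.

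**Figure D1:**
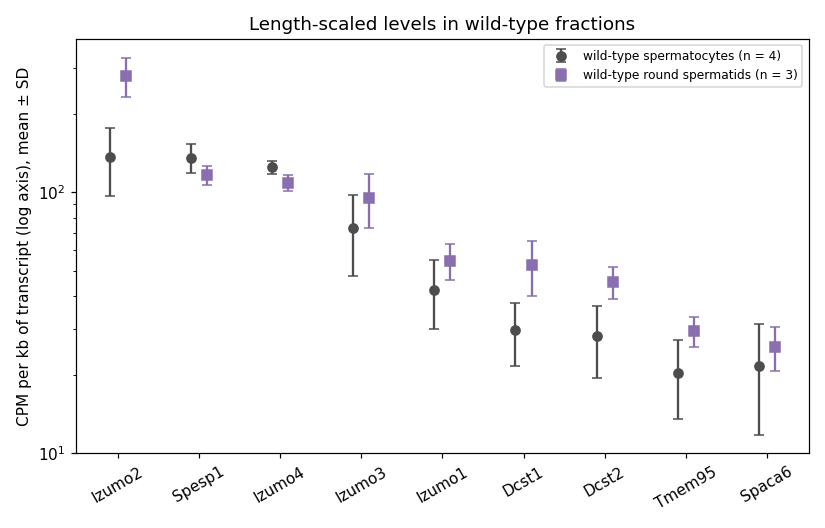
Level per kb of transcript (CPM per kb, log axis) of the 9 genes in wild-type spermatocytes (circles, n = 4) and wild-type round spermatids (squares, n = 3), as means with SD bars. Izumo2 stood at 137 in spermatocytes and 281 in round spermatids, while Tmem95 and Spaca6 were the lowest in both fractions.

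Transcripts of all 9 members were present in both fractions, and the differences between the fractions in the wild type were at most 2.05-fold. In wild-type mice 3 of the 9 were called higher in round spermatids than in spermatocytes and none lower, beside 12.7% of 20404 tested features called higher (edgeR, adjusted p under 0.05 and absolute log2 fold change above 0.5). DESeq2 also called 3, beside 2640 of 20404 features called higher. The median log2 fold change of the 9 was 0.39, beside 0.016 over all features tested. Between the same groups the sums of the elongating spermatid and macrophage markers were 3.73-fold and 2.67-fold higher in round spermatids, without overlap, those of the spermatogonial and peritubular markers 1.45-fold and 1.69-fold higher, also without overlap, and that of the round spermatid markers 1.42-fold higher, with overlap. Their part in the values of the members was not tested.

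Izumo2 had the largest of these differences. Its level was 81.7, 83.3, 60.5 and 120.5 CPM in the wild-type spermatocyte libraries (replicates 1, 2, 4 and 5) and 162, 158 and 212 CPM in the wild-type round spermatid libraries (replicates 1, 2 and 4). The groups did not overlap, beside 17.3% of features with the round spermatid libraries all higher, and the log2 fold change was 1.03 (SE 0.29 and adjusted p = 0.0111 with edgeR).

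The pair of DC-STAMP domain genes behaved alike. Dcst1 measured 57.7, 62.2, 59.8 and 97.6 CPM in spermatocytes and 93.5, 125 and 152 CPM in round spermatids, with a log2 fold change of 0.83 (SE 0.18 and adjusted p = 0.00213 with edgeR). Dcst2 measured 52.97, 57.5, 52.7 and 93.8 CPM in spermatocytes and 87.3, 109 and 114 CPM in round spermatids, with a log2 fold change of 0.69 (SE 0.17 and adjusted p = 0.00612 with edgeR). In both genes replicate 5 of the spermatocytes was the high library and reached into the range of the round spermatids. The ratio of Dcst1 to Dcst2 in CPM stayed between 1.04 and 1.34 over all 21 libraries.

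The other 6 members did not pass. Tmem95, which encodes a sperm membrane protein, had a log2 fold change of 0.52 (SE 0.21 and adjusted p = 0.0766 with edgeR), Izumo3 of 0.39 (SE 0.25), Izumo1 of 0.37 (SE 0.18) and Spaca6 of 0.24 (SE 0.25). Izumo4 and Spesp1 had negative values, -0.20 (SE 0.17) and -0.22 (SE 0.14). Izumo4 was lower without overlap, at 121.7 to 139.0 CPM in round spermatids and 139.2 to 159 CPM in spermatocytes, beside 16.4% of features with the round spermatid libraries all lower. Leaving out wild-type spermatocyte replicate 5 raised the number called higher to 7 of 9, all but Izumo4 and Spesp1, beside 16.8% of 20262 features. Without round spermatid replicate 4, Izumo2 lost its call (log2 fold change 0.89, edgeR adjusted p = 0.0600). With the 3 outlier libraries added back no member was called, and neither was any of the 20542 features tested. With the replicate number of the title as a block 7 were called, beside 16.3% of features called higher.

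In heterozygous mice none of the 9 was called between the fractions, beside 7.07% of features called higher, and in null mice none was called, beside 11.7% (edgeR). DESeq2 called none in either, beside 1640 and 2530 of 20404 features called higher and 646 and 1528 called lower. At an unadjusted p under 0.05 there were 0 members in the heterozygotes and 1, Izumo2, in the null. This stood beside 4810 and 6604 of 20404 features in either direction. Izumo2 in the null measured 153, 118 and 115 CPM in spermatocytes and 280, 228, 184.5 and 187.5 CPM in round spermatids. These groups did not overlap, beside 18.7% of features with the round spermatid libraries all higher (log2 fold change 0.77, SE 0.29 and adjusted p = 0.0723 with edgeR). It was the 1 member called with no filter on low counts, beside 6.95% of features, and with only these 2 groups in the fit, beside 13.4%. Dcst1 had a log2 fold change of 0.35 (SE 0.18) in heterozygotes and 0.26 (SE 0.18) in the null, and Dcst2 of 0.33 (SE 0.18) and 0.10 (SE 0.18). Dcst2 in the heterozygotes was higher without overlap (105.4 to 138 CPM in round spermatids and 99.4 to 103 CPM in spermatocytes), beside 10.9% of features. Spesp1 in the null was lower without overlap (329 to 358.5 CPM and 390 to 449 CPM), beside 11% of features. In the null the sums of the elongating spermatid, macrophage and Sertoli cell markers were 4.12, 3.235 and 2.13 times as high in round spermatids. Those of the peritubular and erythrocyte markers were 1.84 and 5.32 times as high, and all were without overlap. In the heterozygote the elongating spermatid and macrophage sums were 3.36 and 2.20 times as high, without overlap. The part of these markers in the values was not tested. Whether the step between fractions differs between null and wild type is tested below.

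**Figure D2:**
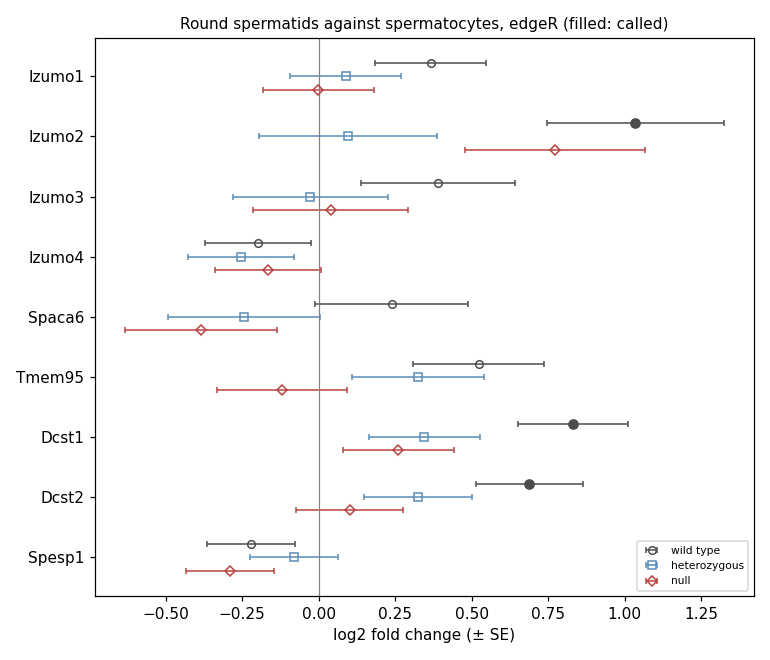
Log2 fold change of round spermatids against spermatocytes (x axis, ± SE) for the 9 genes in wild-type, heterozygous and null mice, from one edgeR fit over the 21 libraries. Filled symbols mark the 3 calls, Izumo2, Dcst1 and Dcst2 in the wild type, and the values of Izumo4 and Spesp1 lie below 0 in all 3 genotypes.

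The comparison of null with wild-type spermatocytes asks whether the fusion genes are expressed differently in meiotic cells with the deletion on both copies. With edgeR none of the 9 was called, beside 0.0308% of 19450 features called higher. An unadjusted p under 0.05 with a positive fold change was found for 6 members, beside 15.9% of features. DESeq2 called 5 of the 9 higher (Izumo1, Spaca6, Tmem95, Dcst1 and Dcst2), beside 9.08% of features. The median log2 fold change of the 9 was 0.80, beside -0.031 over all features tested, and 8 of the 9 were above 0.

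Izumo1 measured 51.5, 60.6, 50.8 and 90.5 CPM in wild-type spermatocytes (replicates 1, 2, 4 and 5), 95.0, 87.3 and 118 CPM in heterozygous and 116, 101 and 122 CPM in null spermatocytes (replicates 1 to 3). Each null library was above each wild-type library, the nearest being wild-type replicate 5. The log2 fold change of null against wild type was 0.85 (SE 0.21 and adjusted p = 0.0599 with edgeR).

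Spaca6 had the largest fold change of the 9. It measured 19.5, 16.6, 17.7 and 38.7 CPM in wild-type libraries, 34.1, 34.8 and 56.1 CPM in the heterozygote and 52.6, 38.1 and 64.0 CPM in the null. Null replicate 2 lay just below wild-type replicate 5, so the groups overlapped. The log2 fold change was 1.17 (SE 0.31 and adjusted p = 0.0599 with edgeR).

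Tmem95 was the member with the fewest counts. It measured 7.95, 9.30, 9.84 and 16.1 CPM in wild-type libraries, 15.5, 14.7 and 13.9 CPM in the heterozygote and 19.4, 15.4 and 21.3 CPM in the null. The log2 fold change was 0.80 (SE 0.25 and adjusted p = 0.0730 with edgeR), and again wild-type replicate 5 was inside the range of the null.

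Dcst1 measured 119, 111 and 131 CPM in the null and 117, 108 and 126 CPM in the heterozygote, all above the 4 wild-type values given above (null against wild type 0.81, SE 0.19 and adjusted p = 0.0599 with edgeR). Dcst2 measured 114, 101 and 121 CPM in the null and 103, 99.4 and 99.4 CPM in the heterozygote, also all above the wild type (0.81, SE 0.21 and adjusted p = 0.0599 with edgeR). Izumo1, Dcst1 and Dcst2 were thus the 3 of 9 members with no overlap between null and wild type, beside 13.2% of features with the null libraries all higher. For each the two-sided exact permutation p over the libraries was 0.0571, the smallest that 3 against 4 libraries can give. Wild-type spermatocyte replicate 3, an outlier in the labels and not among the 4, held 130.6 CPM of Dcst1 and 115.7 CPM of Dcst2 on a scale over all 24 libraries, within the range of the null. With the outliers added back the log2 fold changes were 0.61 and 0.64 for Dcst1 and Dcst2. No member was called in that fit, beside 5 of 19640 features called higher.

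Izumo2 and Izumo3 had wide spreads. Izumo2 measured 153, 118 and 115 CPM in the null (log2 fold change 0.59, SE 0.33 and adjusted p = 0.236 with edgeR). Izumo3 measured 70.1, 85.6, 72.2 and 136.5 CPM in the wild type against 165, 128 and 140 CPM in the null (0.68, SE 0.29 and adjusted p = 0.137 with edgeR). In both the highest wild-type library, replicate 5, was within the null range.

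Izumo4 and Spesp1 had small differences. Izumo4 measured 150.0, 149, 139 and 159 CPM in the wild type against 123, 140.5 and 139.5 CPM in the null (-0.14, SE 0.20 and adjusted p = 0.659 with edgeR). Spesp1 had the highest CPM of the 9 in spermatocytes, with 361.5, 442, 375 and 471 CPM in the wild type against 390, 418 and 449 CPM in the null (0.04, SE 0.17 and adjusted p = 0.894 with edgeR). The libraries of the 2 genotypes overlapped for both genes.

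**Figure D3:**
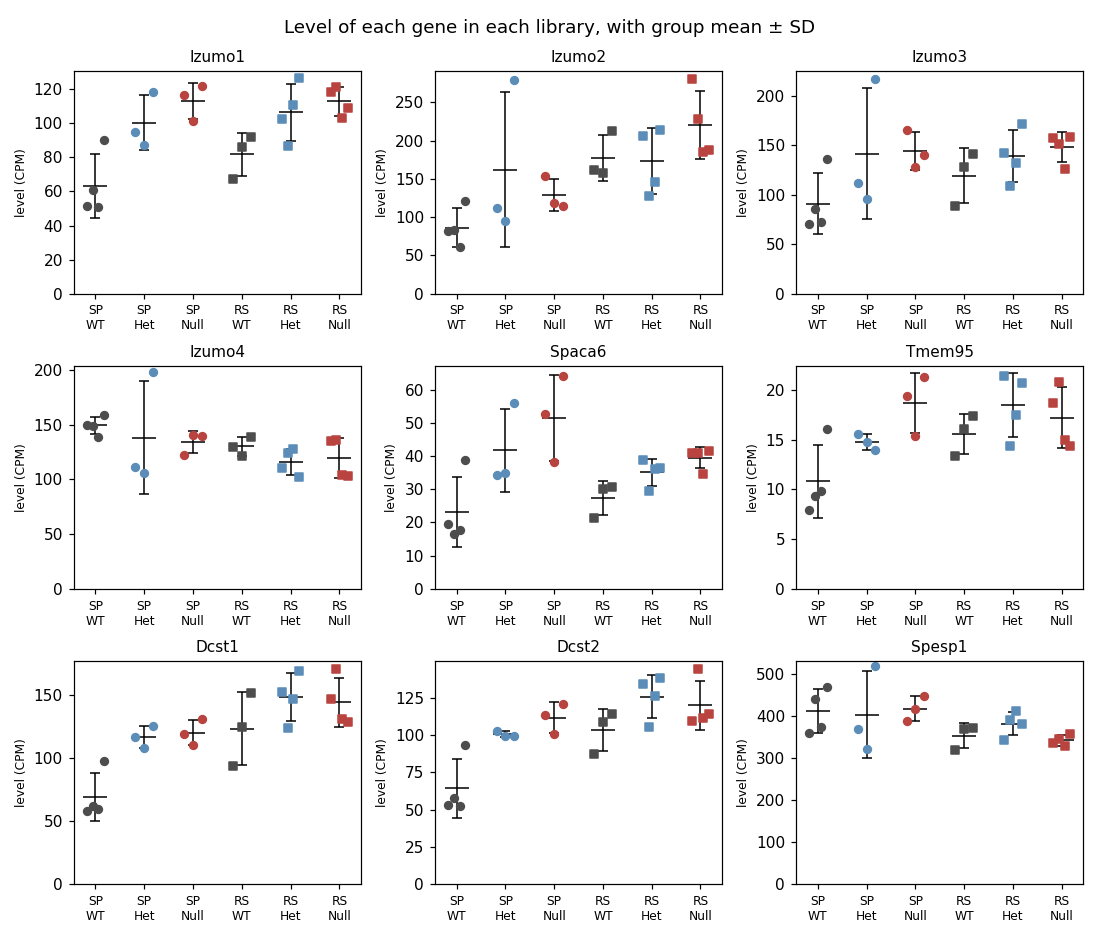
Level (CPM, y axis from 0) of each of the 9 genes in each of the 21 libraries, by fraction (SP, spermatocytes, circles; RS, round spermatids, squares) and genotype (WT, Het, Null), with the group mean and SD as bars. In spermatocytes one wild-type library, replicate 5, sits apart from the other 3 for Izumo1 (90.5 CPM against 50.8 to 60.6 CPM), Izumo2, Izumo3, Spaca6, Tmem95, Dcst1 and Dcst2, whereas Izumo4 and Spesp1 show no such gap.

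The number of members called depended on the fit and on one library. With all 4 wild-type libraries, edgeR called 7 with no filter on low counts (beside 4.76% of features called higher), 4 with only the 2 groups in the fit (4.79%) and 4 with the replicate number of the title as a block (2.98%). Without wild-type spermatocyte replicate 5, edgeR called 6 of the 9 higher in the null, beside 13.9% of 19181 features: Izumo1 (log2 fold change 1.09), Izumo3 (0.96), Spaca6 (1.55), Tmem95 (1.08), Dcst1 (1.04) and Dcst2 (1.07), with adjusted p from 0.00226 to 0.0269. In the 6 fits that each left out another wild-type or null library, no member was called. Replicate 5 also carried a higher number in its library label (78) than the other wild-type spermatocyte libraries used (30 to 42), and null replicates 2 and 3 carried 84 and 90. Among libraries numbered above 60 (1 wild-type and 2 null) the ratio of means was 1.23 for Izumo1, 1.32 for Spaca6, 1.24 for Dcst1 and 1.18 for Dcst2, with 1.14 for Tmem95, 0.968 for Izumo2 and 0.981 for Izumo3. Among those numbered up to 60 (3 wild-type and 1 null) it was 2.14, 2.93, 1.99 and 2.09 for the first 4 and 2.15, 2.04 and 2.18 for the other three. With the number above 60 as a term in the fit, the log2 fold changes of Izumo1, Spaca6, Dcst1 and Dcst2 were 0.75, 1.03, 0.69 and 0.70, and no member was called.

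The sum of the 8 round spermatid markers was also higher in every null than in every wild-type spermatocyte library. It was 655, 748, 634.5 and 1168 CPM in wild-type spermatocytes, 1117, 1036 and 2011 CPM in heterozygous and 1404, 1203 and 1297 CPM in null spermatocytes, so that wild-type replicate 5 was again the high one. All 8 markers had positive log2 fold changes for null against wild type (median 0.69), none was called with edgeR and DESeq2 called 3 higher. The sum of the 8 spermatocyte markers moved the other way, with 687 to 1015 CPM for wild-type and 545 to 676 CPM for null libraries, and DESeq2 called 4 of them lower. All 8 Sertoli cell genes had negative log2 fold changes (median -0.74) with none called and sums that overlapped, and of the 6 macrophage genes tested 4 had an unadjusted p under 0.05 and DESeq2 called 2 higher, with sums that overlapped. Per 100 CPM of round spermatid marker, Izumo1 stood at 7.93 ± 0.154 CPM in wild-type (n = 4) and 8.70 ± 0.602 CPM in null spermatocytes (n = 3). On that scale the ratio of null to wild type was 1.10 for Izumo1, 1.40 for Spaca6, 1.06 for Tmem95, 1.06 for Dcst1, 1.07 for Dcst2, 0.979 for Izumo3 and 0.909 for Izumo2. Izumo4 and Spesp1 stood at 0.530 and 0.606. The marker sum was itself 1.62 times as high in the null, so a gene with unchanged CPM must come out low on this scale. The sum also overlapped between the fractions, so it is no measure of round spermatid content by itself. The part of the markers in the differences between genotypes was not tested.

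**Figure D4:**
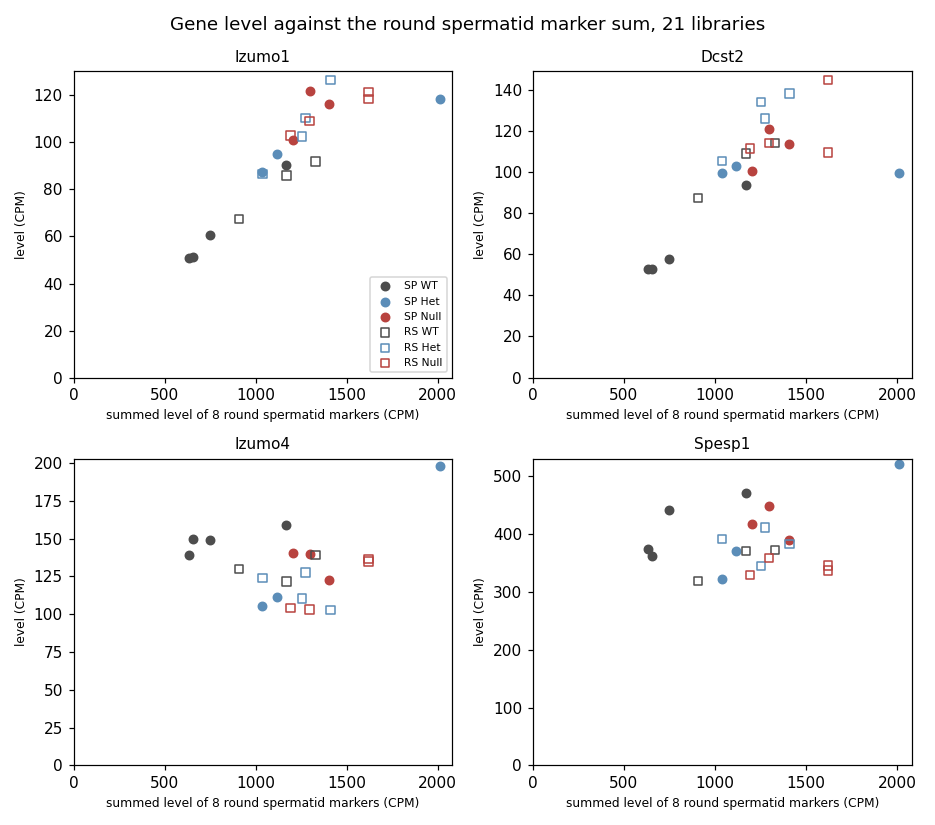
Level of 4 of the genes (y axis, CPM) against the summed level of the 8 round spermatid markers (x axis, CPM) in the 21 libraries, with spermatocyte libraries as filled circles and round spermatid libraries as open squares, coloured by genotype. Izumo1 and Dcst2 are lowest in the 3 wild-type spermatocyte libraries with marker sums of 634.5 to 748 CPM, while Izumo4 and Spesp1 show no such order.

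Heterozygous spermatocytes were compared with the same 4 wild-type libraries, so this comparison is not independent of the preceding one. None of the 9 was called with edgeR, beside 0.0257% of features called higher, and 6 had an unadjusted p under 0.05 with a positive fold change, beside 14.9%. DESeq2 called 3 (Izumo1, Dcst1 and Dcst2), beside 3.53%. Dcst1 and Dcst2 were the 2 members whose heterozygous libraries all lay above the wild type, beside 6.44% of features. Their log2 fold changes were 0.79 (SE 0.19) and 0.69 (SE 0.21), both with edgeR adjusted p = 0.124. Izumo1 had 0.70 (SE 0.21), Spaca6 0.88 (SE 0.31) and Tmem95 0.49 (SE 0.25). Without wild-type replicate 5, edgeR called 7 of the 9, all but Izumo4 and Spesp1, beside 10.8% of features, and with no filter on low counts it called 5, beside 2.44%. Between the same groups the spermatocyte marker sum was lower without overlap (ratio of means 0.746), and the round spermatid, spermatogonial and Leydig cell sums were 1.73, 1.49 and 2.26 times as high with overlap. The part of these markers was not tested.

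Heterozygous replicate 3 stood apart for several members. It held 278.5 CPM of Izumo2 against 112 and 95.6 CPM in replicates 1 and 2. For Izumo3 it held 218 CPM against 111.5 and 95.4 CPM, and for Izumo4 198 CPM against 111 and 105.5 CPM. For Tmem95 and Dcst2 it did not stand apart. It also had the highest round spermatid marker sum of all libraries. Without it the log2 fold change of heterozygous against wild type went from 0.94 to 0.30 for Izumo2, from 0.67 to 0.22 for Izumo3 and from -0.07 to -0.42 for Izumo4.

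Null and heterozygous spermatocytes were not told apart. No member was called with edgeR or DESeq2, beside 1 and 4 of 19450 features. None had an unadjusted p under 0.05, beside 727 features. The log2 fold changes ran from -0.35 (SE 0.35, Izumo2) to 0.32 (SE 0.27, Tmem95). The negative value of Izumo2 depended on heterozygous replicate 3. Without it the log2 fold change was 0.28 for Izumo2, 0.45 for Izumo3 (0.01 with it) and 0.27 for Izumo4 (-0.07 with it), again without a call.

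Null and wild-type round spermatids were compared next. None of the 9 was called with edgeR, beside 0.0259% of 19310 features called higher, and 2 had an unadjusted p under 0.05 with a positive fold change, beside 8.01%. These 2, Izumo1 and Spaca6, were also the members without overlap between the groups, beside 9.09% of features. This holds for the libraries used. Wild-type round spermatid replicate 3, an outlier in the labels, held 44.6 CPM of Spaca6, above all 4 null libraries, and 102.8 CPM of Izumo1, next to the lowest null library. With the outliers added back the log2 fold changes were 0.30 for Spaca6 and 0.35 for Izumo1. DESeq2 called 1, Spaca6, beside 1.64%.

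Izumo1 measured 67.4, 85.9 and 91.8 CPM in wild-type round spermatids (replicates 1, 2 and 4) and 118, 121, 103 and 109 CPM in the null (replicates 1 to 4). The log2 fold change was 0.44 (SE 0.14 and adjusted p = 0.126 with edgeR). Spaca6 measured 21.5, 30.1 and 30.7 CPM in the wild type against 40.8, 41.04, 34.7 and 41.6 CPM in the null (0.50, SE 0.15 and adjusted p = 0.110 with edgeR). Both kept their direction in the libraries numbered up to 60 and above 60, with ratios of 1.56 and 1.16 for Izumo1 and of 1.59 and 1.24 for Spaca6.

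The remaining members overlapped between the genotypes. Izumo2 and Izumo3 both had a log2 fold change of 0.28 (SE 0.18 and 0.17), Dcst1 of 0.19 (SE 0.16), Dcst2 of 0.18 (SE 0.14) and Tmem95 of 0.11 (SE 0.16). For Izumo4 it was -0.16 (SE 0.13) and for Spesp1 -0.07 (SE 0.12). The direction of several of these differed by library number. The ratio of null to wild type was 1.59 up to 60 and 0.877 above 60 for Izumo2, 1.46 (1.455) and 0.853 for Dcst1, 1.34 and 0.846 for Tmem95, 1.30 (1.295) and 0.989 for Dcst2, and 1.08 and 0.745 for Izumo4. The wild type had 1 library above 60. The median of the 9 was 0.19, beside 0.027 over all features tested. The round spermatid marker sum was 907 to 1328 CPM for wild-type and 1192 to 1620 CPM for null libraries. Of the 10 macrophage genes 6 were higher in every null than in every wild-type round spermatid library (median log2 fold change 1.02), none was called, and their sum overlapped. The part of these markers in the values was not tested.

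Heterozygous round spermatids, set against the same 3 wild-type libraries, gave no call among the 9 with edgeR or DESeq2. Over all 19310 features edgeR called 0.0207% higher and DESeq2 called 7 higher. At an unadjusted p under 0.05 there were 2 higher, Izumo1 (log2 fold change 0.39, SE 0.14) and Spaca6 (0.36, SE 0.15), beside 4.97% of features. No member was without overlap, beside 4.43%. Null against heterozygous round spermatids gave no call among the members with edgeR or DESeq2, beside 1 and 20 of 19310 features. No member had an unadjusted p under 0.05, beside 1482 features. The log2 fold changes ran from -0.20 (SE 0.11, Spesp1) to 0.31 (SE 0.16, Izumo2).

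**Figure D5:**
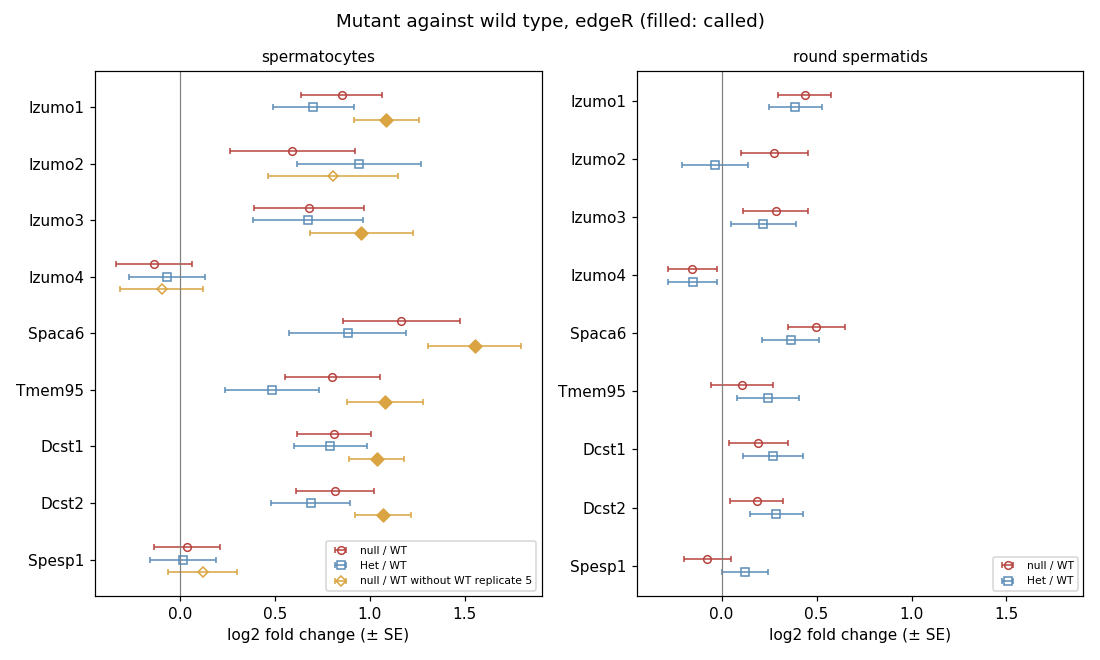
Log2 fold change against wild type (x axis, ± SE, edgeR) of the null and the heterozygote in spermatocytes (left) and round spermatids (right), with the null values in spermatocytes also shown without wild-type replicate 5. Filled symbols mark calls, which occur only in that last series, for 6 genes, and Izumo4 and Spesp1 stay near 0 in spermatocytes.

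Whether the effect of the null genotype differs between the fractions was tested directly in the fit of all 21 libraries. No member was called with edgeR or DESeq2, and neither was any feature, while 1215 of 20404 features had an unadjusted p under 0.05. Among these were Dcst2 (difference of log2 fold changes, round spermatids minus spermatocytes, -0.59, SE 0.25), Dcst1 (-0.57, SE 0.26) and Tmem95 (-0.64, SE 0.30), each with edgeR adjusted p = 0.807. For these 3 genes the fold changes of null against wild type were larger in spermatocytes than in round spermatids. This difference in the null effect is thus not shown beyond the spread of the libraries.

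Other genes of the fusion step were taken as a list of 8: Tmem81, whose product joins the complex of IZUMO1 and SPACA6, Llcfc1 and Fimp, which are needed for fusion, Frey1, which is needed for IZUMO1 to be made, Spata46, Eqtn (equatorin), Tssk6, a kinase of late spermatids, and Crisp2. In wild-type mice 3 of the 8 were called higher in round spermatids than in spermatocytes, beside the 12.7% of features given above: Tssk6 (log2 fold change 1.91, SE 0.42 and adjusted p = 0.00233 with edgeR), Llcfc1 (1.04, SE 0.24) and Spata46 (0.64, SE 0.21). Tssk6 was called in the heterozygote too (1.79, SE 0.44), beside 7.07% of features, and Tssk6 (2.19, SE 0.45) and Llcfc1 (0.76, SE 0.24) in the null, beside 11.7%. None of the 8 was called between null and wild type with edgeR. In spermatocytes DESeq2 called 2 higher, beside the 9.08% of features given above, 4 had an unadjusted p under 0.05, beside 30.4% of features in either direction, and the median log2 fold change was 0.59, from Eqtn at 0.77 (SE 0.25) to Tssk6 at -0.08 (SE 0.41). In round spermatids the median was 0.27, 2 had an unadjusted p under 0.05, beside 19.3% of features in either direction, and DESeq2 called none.

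Of the egg-side partners, Izumo1r had 0 to 2 counts in any library and was not tested, and Cd9, the egg tetraspanin, had 11 to 57 counts.

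For the wider machinery of the acrosome and of binding to the zona pellucida, the coat of the egg, 22 genes were taken, all of which were tested. Between wild-type fractions 4 were called higher in round spermatids (Ace, Calr3, Adam1a and Spaca4) and 2 lower (Adam2 and Clgn), beside 12.7% and 11.4% of features. Between null and wild type none was called with edgeR in either fraction. In spermatocytes 12 had an unadjusted p under 0.05, beside the same 30.4%, DESeq2 called 6 higher and 2 lower, beside 9.08% and 6.48%, and the median log2 fold change was 0.29. The most positive were Pgap1 (1.08, SE 0.32) and Spam1 (0.86, SE 0.24), a sperm hyaluronidase, and the most negative Tex101 (-1.60, SE 0.44) and Ly6k (-0.74, SE 0.20), which encode surface proteins of the same family. In round spermatids 8 had an unadjusted p under 0.05, beside 19.3%, DESeq2 called 1, beside 1.64%, and the median was 0.20. The most positive were Pdilt (0.53, SE 0.17), a testis chaperone, and Spam1 (0.43, SE 0.19), and the most negative Tex101 (-0.39, SE 0.21) and Adam1b (-0.29, SE 0.12).

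The pattern over the 6 groups was compared by the root mean square difference of centred group means of log2 CPM, where 0 means the same pattern. Among the members the closest pair was Dcst1 and Dcst2 (0.0603), followed by Izumo1 and Izumo3 (0.0688), Tmem95 and Dcst2 (0.0921) and Izumo4 and Spesp1 (0.0992). The farthest was Izumo2 and Izumo4 (0.542). Out of 20404 features those nearest to Izumo1 were Adam25 (0.0204), 1700071M16Rik (0.0283) and St8sia3 (0.0313), against a median distance of 0.435. Nearest to Izumo2 were Llcfc1 (0.0435), itself a fusion gene, Gm29460 (0.0449) and Tubb4b-ps1 (0.0459). Nearest to Izumo3 were Ttll7, Gm31752 and Suv39h2 (0.0187 to 0.0324), and to Izumo4 they were 4930544G11Rik, Rxfp2 and Fam170a (0.0236 to 0.0266). Spaca6 was nearest to 4930452A19Rik, 4930480C01Rik and 4933406J10Rik (0.0402 to 0.0533). For Dcst1 they were 4930432H08Rik, Catsper1, a subunit of the sperm calcium channel, and Patz1 (0.0303 to 0.0471), for Dcst2 Kcnj6, Sptbn1 and Insr (0.0257 to 0.0390), and for Spesp1 Usp48, 4930593A02Rik and Galnt3 (0.0174 to 0.0287). All distances are taken over the same 21 libraries, and a small distance describes levels only.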

How the data were processed

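The deposited file holds unnormalized read counts by gene for 24 libraries. Directional libraries were prepared after selection of polyadenylated RNA. According to the submitters' processing notes and the study's methods, the reads were trimmed by the authors with Trim Galore and aligned with STAR, whose gene counting gave the deposited counts, and mm10 is the build those notes name. The strand column used and the annotation release are not given in the sources used here. All 55536 identifiers matched GENCODE release 21. STAR counts only uniquely aligned reads, so near-identical sequence lowers a gene's count. Groups came from the sample labels, and 3 libraries marked there as outliers stayed out of the main fits. Libraries held 12825105 to 29749058 counts.

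Features were kept where 3 or more libraries of a fit had a count of 10 or more. They were tested with edgeR 4.0.16 (quasi-likelihood test, TMM scaling, R 4.3.3), on the 3 genotypes of a fraction or, between fractions, on all 21 libraries. A call needed a Benjamini-Hochberg adjusted p under 0.05 together with a log2 fold change beyond 0.5 in either direction. Standard errors are the log2 fold change divided by the square root of its F statistic. CPM are TMM-scaled with the 21 libraries. DESeq2 1.42.0, other scaling, filters, groups, outliers, replicate blocks, a library number term and each library left out were alternatives, and the fit was tested on simulated data. The members and lists were chosen with earlier results of these data known. Text names all members, the fusion and egg genes, the 2 extreme acrosome genes in each direction for null against wild type, any acrosome gene called between wild-type fractions (named after its values were seen) and the 3 most alike features, which for Tmem95 are not reported here. Over 17 pairs with the same title number the correlation of deviations was above 0.1 in 4, so title numbers were not taken to pair the samples. Over 9 pairs of libraries with consecutive numbers, 1 from each fraction, it was above 0.1 in 8, which includes all 3 wild-type pairs and all 3 null pairs, so these numbers may pair the fractions. The fit with them as a replicate block, on the libraries with a partner, is given as an alternative. Over 37 pairs of libraries of one group the chi-square per gene was 9.75 to 179, so none was a repeat deposit. A limit for a count of 0 covers counting error only. Promoter windows are from RefSeq (GRCm38.p6).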

Additional observations from a re-analysis of the deposited data

Results flagged for a closer look

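Among 27 sets of 4 libraries (9 genes in 3 groups), 5 held a library far from the other 3, where chance gives about 1 in 20 for independent sets. These sets share libraries, and 3 of the 5 are the same library. Wild-type spermatocyte replicate 5 was the high one for Spaca6 (38.7 CPM), Dcst1 (97.6 CPM) and Dcst2 (93.8 CPM). Null round spermatid replicate 3 was the low one for Spaca6 (34.7 CPM), and null round spermatid replicate 2 was the high one for Dcst2 (144.8 CPM).

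Heterozygous spermatocyte replicate 4, which the labels call an outlier and which only the fits with outliers added back used, held more than any wild-type spermatocyte library used for 7 of the 9 genes, on a scale over all 24 libraries: Izumo1 at 143 CPM, Izumo2 at 184 CPM, Izumo3 at 190 CPM (189.8), Spaca6 at 53.9 CPM, Tmem95 at 25.9 CPM (25.85), Dcst1 at 164.5 CPM and Dcst2 at 144 CPM (143.8). Its sums of round and elongating spermatid markers were 1625 and 17620 CPM. On that scale wild-type spermatocyte replicate 3, also an outlier in the labels, was above every wild-type spermatocyte library used for Izumo2 (136.0 CPM), Tmem95 (16.7 CPM), Dcst1 (130.6 CPM) and Dcst2 (115.7 CPM). The remaining outlier, wild-type round spermatid replicate 3, held 109.0 CPM of Izumo2 against 158.3 to 212.7 CPM in the wild-type round spermatid libraries used. It was above all of these for Izumo1 (102.8 CPM), Spaca6 (44.6 CPM), Tmem95 (17.7 CPM) and Spesp1 (440.3 CPM), and below them for Izumo4 (110.8 CPM). Its elongating spermatid marker sum was 7142 CPM, within the range of the spermatocyte libraries.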

How the results depend on the processing

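No member was called between null and wild-type spermatocytes in the edgeR fit, but DESeq2 called 5, no filter on low counts 7, and a fit of only the 2 groups and the title number as a replicate block 4 each. For heterozygous against wild-type spermatocytes the counts were 3 with DESeq2 and 5 with no filter. For null against wild-type round spermatids DESeq2 called 1. With consecutive library numbers as the replicate block the fraction comparison called 3 members in the wild type (Izumo2, Dcst1 and Dcst2, as without it). This stood beside 2397 of 20292 features called higher. The same fit called 0 members in the null and 0 in the heterozygote, beside 2174 and 1015 features called higher. The difference between fractions of the null effect called 0 members and 0 features (Dcst1 -0.61, SE 0.20, edgeR adjusted p = 0.649). Between wild-type fractions the title number as the replicate block gave 7 members (beside 16.3% of features called higher) and the outlier libraries added back gave 0, and between null fractions no filter and only the 2 groups gave 1 each. Leaving out one library at a time gave 0 to 6 members (null, spermatocytes), 0 to 7 (heterozygous, spermatocytes), 2 to 7 (wild-type fractions) and 0 in every other comparison. The highest counts came without wild-type spermatocyte replicate 5, beside 13.9%, 10.8% and 16.8% of features called higher.

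Over all features, the 8 calls between null and wild-type spermatocytes became 3026 with DESeq2, 4 with the library number term, 2623 with no filter, 1303 with only the 2 groups, 687 with the replicate block, and 4 to 4526 with one library left out, the last without wild-type replicate 5. The 10 calls in round spermatids became 702 with DESeq2, 20 with RLE scaling, 238 with no filter, 26 with the outliers added back and 5 to 9 with one library left out. The 4934 calls between wild-type fractions became 0 with the outliers added back and 3394 to 6398 with one library left out. The causes were not tested.

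Some signs changed. For null against heterozygous spermatocytes with one library left out, Izumo2 ranged from -0.62 to 0.28, Izumo3 from -0.21 to 0.45, Izumo4 from -0.23 to 0.27, Spesp1 from -0.11 to 0.24 and Dcst1 from -0.041 to 0.081. Between heterozygous fractions Izumo2 ranged from -0.17 to 0.71, Izumo3 from -0.24 to 0.40, Izumo4 from -0.41 to 0.077, Spaca6 from -0.37 to 0.0039, Spesp1 from -0.22 to 0.12 and Izumo1 from -0.0058 to 0.20. In round spermatids the sign changed for Izumo2 against wild type in the heterozygote (-0.15 to 0.11) and, for null against heterozygote, for Izumo1 (-0.029 to 0.13), Izumo3 (-0.027 to 0.17) and Izumo4 (-0.067 to 0.065). For null against wild-type spermatocytes Spesp1 went to -0.044 with the library number term and -0.047 with the replicate block, and ranged from -0.006 to 0.12 with one library left out. For heterozygous against wild-type spermatocytes Spesp1 went to -0.031 with no filter, -0.013 with only the 2 groups and -0.10 with the replicate block, and ranged from -0.21 to 0.15, while Izumo4 ranged from -0.42 to 0.089. Between null fractions Izumo3 went to -0.0076 with DESeq2 and RLE scaling and to -0.0017 with the replicate block, ranging from -0.040 to 0.15. Izumo1 ranged from -0.075 to 0.055, and Dcst2 went to -0.0078 with consecutive library numbers as the replicate block, ranging from -0.0001 to 0.16. The lowest count of any member in a library was 125, and the share of depth and of the spread between pools in the errors was not tested.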
